A study of Mus musculus with 30 samples.

Results

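The genes described here encode the proteasome, the protease that degrades ubiquitin-tagged proteins, and its inducible form, the immunoproteasome. They were measured on 30 Affymetrix MG-U74Av2 mouse arrays of sorted CD4+ T cells. Members were the probe sets that named a single gene symbol starting with Psma, Psmb, Psmc, Psmd, Psme, Psmf or Psmg followed by a number. This rule used names only, no measured value. It took 58 of 12422 probe sets, for 46 of the 8251 genes named alone. Of these, 44 genes on 56 probe sets encode proteasome subunits, activators or assembly chaperones. The other 2 genes, Psmc3ip and Psme3ip1, share the first letters of the name and are no subunits; counts over the 58 probe sets include them and counts by part of the proteasome do not. The immunoproteasome group held 4 genes on 5 probe sets: Psmb8, Psmb9, Psmb10 and Psme1. Psme2, the partner of Psme1, had no probe set of its own: 2 probe sets named Psme2b and Psme2 together, so they were not members, and the stronger one is quoted as shared.

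The proteasome has a barrel-shaped core particle of stacked rings, with alpha subunits at the ends and beta subunits inside, capped by a regulatory particle that binds, unfolds and feeds in ubiquitin-tagged proteins. The catalytic beta subunits Psmb5, Psmb6 and Psmb7 can be exchanged during assembly for the inducible Psmb8, Psmb9 and Psmb10, which makes the immunoproteasome. Lymphocytes express this form widely, interferon gamma raises it, and it is known for making peptides for presentation on MHC class I, together with the PA28 activator encoded by Psme1 and Psme2.

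All cells came from NOD mice, a strain that develops autoimmune diabetes, carrying the BDC2.5 T cell receptor transgene, which gives most T cells one specificity, for an islet antigen. Pancreas set 1 held regulatory T cells (Treg, sorted as CD4+CD25+CD69-, 3 arrays) and effector T cells (Teff, CD4+CD25lo/-CD69+/-, 5 arrays) from the pancreas of mice given rat IgG, with no age given. Pancreas set 2 held Treg (CD4+CD25+, 3 arrays) and Teff (CD4+CD25-, 3 arrays) from the infiltrated pancreas of mice aged 26 days and given antibody to ICOS, a costimulatory receptor. It also held 2 arrays of IgG Treg (CD4+CD25+CD69-), 1 of them labelled with an age of 4 weeks and the other with 26 days. The lymph node set came from mice aged 4 weeks with no treatment named and held CD4+CD25+ (5 arrays) and CD4+CD25- cells (3 arrays) from mesenteric nodes, and 3 arrays of each from peripheral nodes. The labels do not say whether the arrays of a group represent different animals. The p-values therefore rest on the spread from array to array, which may be technical. In bulk samples like these, fewer cells of a type and less RNA per cell cannot be told apart.

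The 250 bases before the transcription start are shown for the 3 inducible catalytic genes because Psmb9 and Psmb10 rose together in pancreatic Treg and Psmb8 and Psmb9 rose together in pancreatic Teff against node cells. The sequences are RefSeq's for GRCm38.p6, written 5′ to 3′ on the gene's strand and ending just before the start, and capitals mark a match to TTCNNNGAA.
Psmb8, chr17:34197945-34198194, plus strand: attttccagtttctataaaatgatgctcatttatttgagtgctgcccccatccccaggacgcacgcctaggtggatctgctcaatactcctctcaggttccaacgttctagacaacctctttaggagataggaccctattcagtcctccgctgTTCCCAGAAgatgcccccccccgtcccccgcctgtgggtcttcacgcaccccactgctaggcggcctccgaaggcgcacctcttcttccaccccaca
Psmb9, chr17:34187331-34187580, minus strand: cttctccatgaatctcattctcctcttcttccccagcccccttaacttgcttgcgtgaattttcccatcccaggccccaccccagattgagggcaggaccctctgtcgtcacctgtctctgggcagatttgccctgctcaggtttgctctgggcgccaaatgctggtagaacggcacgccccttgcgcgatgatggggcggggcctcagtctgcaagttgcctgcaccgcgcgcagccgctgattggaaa
Psmb10, chr8:105938393-105938642, minus strand: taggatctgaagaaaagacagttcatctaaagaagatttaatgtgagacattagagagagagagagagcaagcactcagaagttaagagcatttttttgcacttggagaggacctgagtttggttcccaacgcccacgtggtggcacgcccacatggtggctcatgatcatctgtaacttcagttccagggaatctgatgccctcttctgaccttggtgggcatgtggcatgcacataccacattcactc
Psmb8 and Psmb9 lie on the same chromosome. Psmb9 starts 226 bases from Tap1, which encodes part of the peptide transporter of the MHC class I pathway and runs the other way, so the far end of the Psmb9 window reaches the start of Tap1. Both strands were searched for 4 motifs. TTCNNNGAA, the letters of the site bound by STAT factors, matched once in Psmb8, as TTCCCAGAA with its first base 97 bases before the start, and did not match in Psmb9 or Psmb10. It matched in 7.02% of all 32851 promoters of the same length. AANNGAAA, the core letters of the site bound by interferon regulatory factors, matched in none of the 3 and in 21.3% of all promoters. GGGCGG, the GC box, matched in Psmb9, 55 bases before the start, and in 32.7% of all promoters. CCAAT matched in Psmb9 as ATTGG, 8 bases before the start, and in 33.8% of all promoters. None of these matches overlapped another. A match is a description of these letters, not a bound site.

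Array medians spanned 32.5 to 34.6 intensity units in pancreas set 1, 27.9 to 29.8 in set 2 and 25.3 to 27.1 in the lymph node set, and the precision is limited by the number of arrays. T cell marker genes were bright in every group: the summed intensity of 9 of 10 listed markers was 1750 or more on every array. The summed level of 5 of 6 Treg markers separated the sorts in set 1 (1300 to 1580 in Treg, 351 to 436 in Teff), in mesenteric nodes (957 to 1240 against 228 to 272) and in peripheral nodes (836 to 1120 against 297 to 399). Foxp3 had no probe set of its own, and RMA-type intensities have no 0, so no marker is listed at 0. In set 2 the library labelled anti-ICOS Treg replicate 3 went against its label, with Il2ra (CD25) at 3.88 and Ctla4 at 6.02 on the log2 scale, inside or next to the Teff ranges of 3.68 to 3.82 and 5.81 to 6.26. In the lymph node set peripheral CD25+ replicate 1 stood apart by small margins. Its Treg markers were at the group's level (Il2ra 5.32, Ctla4 7.17). Its mean correlation with its group was 0.967, against 0.977 and 0.972 for replicates 2 and 3. Its actin 3'/5' ratio, 3.30 on the log2 scale, was the node set's highest, above 3.05 in mesenteric CD25+ replicate 4. IgG Treg replicate 1 of set 2 had the highest summed level of erythroid markers, 10200. One array was deposited in both pancreatic sets, as IgG Treg replicate 3 of set 1 and replicate 2 of set 2. Results that rest on the first 3 of these libraries are given with and without them where they moved.

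In the pancreas of IgG-treated mice, Treg carried more transcript of 2 inducible catalytic subunits than Teff. Psmb9, the inducible counterpart of Psmb6, rose 1.73-fold, and Psmb10, the counterpart of Psmb7, rose 1.58-fold. Values are log2 intensities as deposited, and a difference was called where the adjusted p, over all 12422 probe sets, was below 0.05. The share of all probe sets whose groups did not overlap was not counted. A lack of overlap therefore describes the values, here and below, and is no added support. Psmb9 was 9.23, 9.12 and 9.39 in the 3 Treg arrays and 8.59, 8.26, 8.22, 8.67 and 8.51 in the 5 Teff arrays. Every Treg array was above every Teff array, and the difference was 0.79 (SE 0.12, limma adjusted p = 0.00469). Psmb10 was 8.98, 9.0 and 8.86 in Treg and 8.72, 8.14, 7.83, 8.47 and 8.26 in Teff. The groups again did not overlap, with a narrow gap at Teff replicate 1, and the difference was 0.66 (SE 0.17, limma adjusted p = 0.0476).

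The other 2 inducible members had positive differences in set 1 and were not called. Psmb8, the counterpart of Psmb5 and the brightest of the 4, was 9.95, 10.46 and 10.62 in Treg and 9.95, 9.69, 9.49, 10.09 and 10.08 in Teff. Treg replicate 1 lay within the Teff range, and the difference was 0.48 (SE 0.18, limma adjusted p = 0.16). Psme1, the alpha subunit of PA28, was 8.89, 8.99 and 9.07 in Treg and 8.82, 8.59, 8.46, 8.88 and 8.59 in Teff. These did not overlap, by a margin of hundredths, and the difference was 0.31 (SE 0.11, limma adjusted p = 0.146). The second Psme1 probe set stayed between 2.21 and 3.24 on all 30 arrays. The probe set shared by Psme2b and Psme2, the beta subunit of PA28, was 9.58, 9.40 and 9.56 in Treg and 9.13, 9.04, 8.80, 9.32 and 8.94 in Teff, without overlap, and rose by 0.47 (SE 0.12, limma adjusted p = 0.0451).

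**Figure D1:**
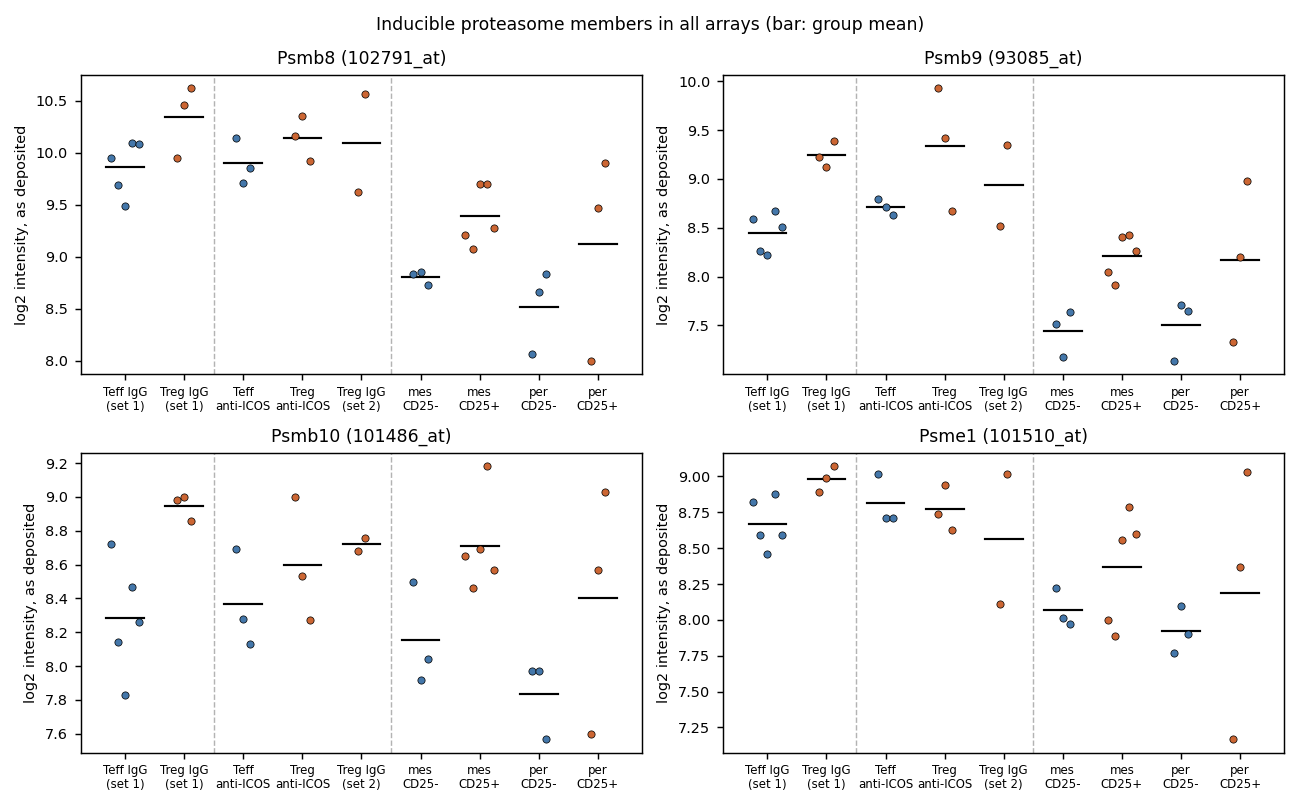
Log2 intensity as deposited (vertical axis) of Psmb8, Psmb9, Psmb10 and Psme1 in each of the 30 arrays, by group, with a bar at the group mean; dashed lines part the 3 sets, which were normalized separately. In set 1 the 3 Treg arrays of Psmb9, 9.12 to 9.39, lie above the 5 Teff arrays, 8.22 to 8.67, and in the peripheral CD25+ group 1 array is low in all 4 genes (7.33 for Psmb9).

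The Psmb9 call in set 1 held without each of the 8 arrays in turn (0.72 to 0.85, adjusted p at most 0.0163). The Psmb10 call was lost without any 1 array but Teff replicate 1, with an adjusted p of up to 0.154. The array numbers in the labels fall into runs, and within the 3 runs that held both cell types Psmb9 differed by 0.80, 0.90 and 0.80 and Psmb10 by 0.55, 1.17 and 0.50. Actin's 3'/5' signal ratio (log2), which rises where the 5' end of transcripts is under-represented, was 3.69, 4.53 and 3.02 in Treg and averaged 3.75 ± 0.76 (SD, n = 3) against 2.65 ± 0.31 (n = 5) in Teff (exact permutation p = 0.0357, the 56 arrangements tested two-sided; Benjamini-Hochberg adjusted p = 0.175 over 7 comparisons). With this ratio as a covariate the Psmb9 difference was 0.99 (adjusted p = 0.0601) and that of Psmb10 0.67 (adjusted p = 0.544).

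The constitutive catalytic subunits that the inducible ones replace did not differ beyond the threshold in set 1. Psmb5, the chymotrypsin-like subunit, was 6.16, 6.61 and 7.30 in Treg and 6.92, 6.62, 6.46, 6.94 and 7.03 in Teff, and differed by -0.10 (adjusted p = 0.858). Psmb6, the caspase-like subunit, was 7.55, 7.29 and 7.28 in Treg and 7.11, 6.63, 6.67, 7.10 and 6.86 in Teff, and differed by 0.50 (adjusted p = 0.0606). Psmb7, the trypsin-like subunit, was 6.21, 6.63 and 6.87 in Treg and 6.67, 6.57, 6.74, 6.95 and 6.94 in Teff, and differed by -0.20 (adjusted p = 0.516). Of the 3 genes only Psmb6 had groups that did not overlap, without a share over all probe sets to set it against.

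The difference between an inducible subunit and its constitutive counterpart was then taken within each array. The probes differ in brightness, so such a difference is no ratio of transcripts, and only its change between groups is read, with no test. Psmb8 minus Psmb5 was 3.79, 3.85 and 3.31 in set 1 Treg and 3.03, 3.07, 3.03, 3.15 and 3.04 in Teff. The Teff values averaged 3.07 ± 0.05 (SD, n = 5), every Treg value was above them, and the Treg mean of 3.65 was 0.59 higher. Psmb9 minus Psmb6 was 1.68, 1.83 and 2.11 in Treg and 1.48, 1.63, 1.55, 1.56 and 1.66 in Teff, a change of 0.30 without overlap. Psmb10 minus Psmb7 averaged 2.37 in Treg and 1.51 in Teff, a change of 0.86, and the groups overlapped.

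In the node cells these pairs behaved differently from one another. Psmb8 minus Psmb5 changed by -0.17 from CD25- to CD25+ cells in mesenteric nodes and by 0.17 in peripheral nodes, with overlap in both. The peripheral overlap came from CD25+ replicate 1, the array that stood apart, at 2.89: without it the CD25+ values were 3.63 and 3.51, above the CD25- values of 3.35, 3.40 and 2.77, and the change was 0.40. Psmb9 minus Psmb6 changed by 0.31 and 0.21, also with overlap, and by 0.38 in peripheral nodes without that array, still with overlap. Psmb10 minus Psmb7 changed by 1.11 in mesenteric nodes, with overlap, and by 1.48 in peripheral nodes without it, where it was 1.86, 2.39 and 3.17 in CD25+ and 1.17, 1.10 and 0.69 in CD25- cells; without replicate 1 this change was 1.79. In peripheral nodes Psmb10 was higher by 0.57 and Psmb7 lower by 0.91, neither called. In anti-ICOS samples the changes from Teff to Treg were 0.10, 0.32 and 0.55 for the 3 pairs, all with overlap. For Psmb9 minus Psmb6 the overlap came from Treg replicate 3, the library whose markers went against its label, at 1.93. Without it Treg was at 2.25 and 2.13 and Teff at 1.99, 1.65 and 1.69, which did not overlap, and the change was 0.41. The other pairs then changed by 0.16 and 0.82 and still overlapped.

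**Figure D2:**
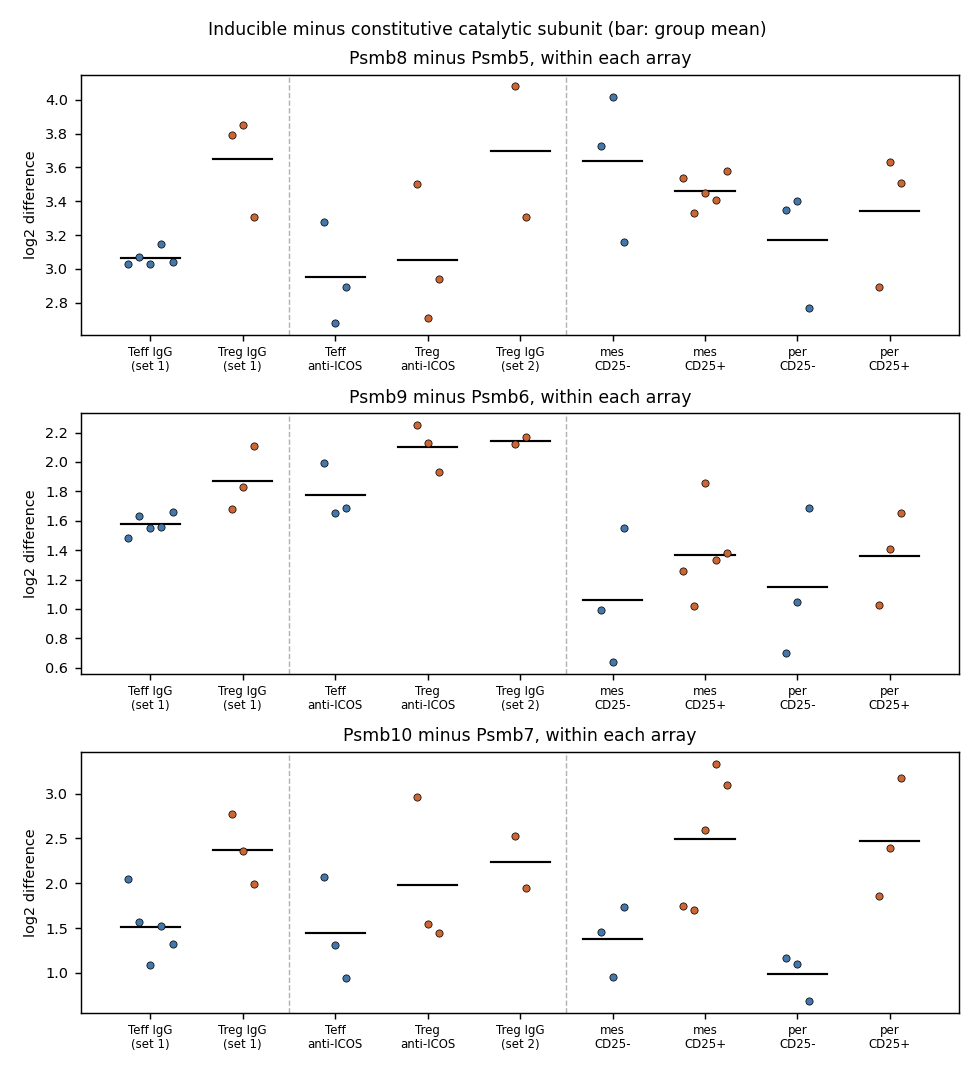
Within-array log2 difference (vertical axis) of Psmb8 minus Psmb5, Psmb9 minus Psmb6 and Psmb10 minus Psmb7 for each of the 30 arrays, by group, with a bar at the group mean and dashed lines between sets. Psmb8 minus Psmb5 is 3.31 to 3.85 in set 1 Treg and 3.03 to 3.15 in Teff, and Psmb10 minus Psmb7 is 1.86 to 3.17 in peripheral CD25+ cells and 0.69 to 1.17 in CD25- cells.

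Over all parts of the proteasome, set 1 Treg showed 6 called member probe sets, all higher, or 10.3% of the 58; over all probe sets tested 3.93% were called higher and 2.76% lower. At an unadjusted p under 0.05 there were 12 higher and 4 lower members, or 27.6% of them, against 20.3% of all probe sets. Besides Psmb9 and Psmb10 the called ones were Psmb2, Psmd1, Psmd8 and 1 of 3 probe sets of Psmc3. Psmb2, a beta subunit without catalytic activity, was 7.59, 7.01 and 6.89 in Treg and 6.79, 6.46, 6.56, 6.54 and 6.35 in Teff and rose 1.54-fold (0.62, SE 0.16, adjusted p = 0.0458). Psmd1, a large scaffold subunit of the regulatory particle's base, was 8.17, 8.21 and 7.83 in Treg and 7.68, 7.18, 7.36, 7.58 and 7.29 in Teff and rose 1.57-fold (0.65, SE 0.14, adjusted p = 0.0198). In both the groups did not overlap. Psmd8, a lid subunit, rose 1.42-fold (6.99 ± 0.11, SD, n = 3, against 6.48 ± 0.17, n = 5; adjusted p = 0.0254). For Psmc3, an ATPase of the base, the called probe set rose 1.45-fold (adjusted p = 0.0271), while its other probe sets differed by 0.29 and 0.25 and were not called.

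By role, the 4 inducible genes had a median difference of 0.57 in set 1 (0.31 for Psme1 to 0.79 for Psmb9), against 0.07 over the 58 member probe sets and 0.03 over all probe sets. The 7 alpha ring genes had a median of 0.06 and none was called; their range ran from -0.18 for Psma6 to 0.36 for Psma2. The 7 constitutive beta genes had a median of 0.22 with 1 called, Psmb2. The 6 regulatory ATPases had a median of -0.03 over the brightest probe set of each gene, none of which was called, and the 11 non-ATPase subunits had a median of -0.02 with 2 called, Psmd1 and Psmd8. The other activators, Psme3 (PA28 gamma, nuclear) and Psme4 (PA200), lay lower in Treg by 0.78 and 0.44 and were not called (adjusted p = 0.182 and 0.231). None of the 7 assembly chaperones was called.

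The calls of set 1 depended on single arrays. The count of 6 fell to 1 without Treg replicate 2 or Teff replicate 5, to 2 without Teff replicate 3 and to 3 without Treg replicate 1 or Teff replicate 2, and it was 0 with the actin ratio as a covariate, under which 86 probe sets in all were called. Calls over all probe sets fell too, from 831 to 471 and 450 where 1 member was left, 620 where 2 were left, and 577 without Teff replicate 2, but only to 810 without Treg replicate 1. Quantile normalization within the set gave 4 higher (Psmb9, Psmc3, Psmd1 and Psmd8) and 1 lower (the chaperone Psmg2).

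In mesenteric nodes, CD25+ cells had more transcript than CD25- cells of 4 of the 7 constitutive beta ring genes, none of them catalytic, and less of 5 genes with other roles. Of the 58 members 5 were called higher and 5 lower (8.62% each), against 4.66% higher and 7.53% lower over all probe sets. The lower share was near that of all probe sets, so the falls are not read as particular to the members. At an unadjusted p under 0.05 there were 13 higher and 8 lower members, or 36.2% of them, against 24.8% of all probe sets. The members called higher were Psmb1, Psmb2, Psmb3 and Psmb4, which are beta subunits without catalytic activity, and Psmd8 of the lid. Psmb3 was 7.93, 7.73, 8.04, 8.49 and 8.63 in CD25+ and 6.99, 6.71 and 7.38 in CD25- cells. The groups did not overlap and Psmb3 rose 2.2-fold (1.13, SE 0.30, adjusted p = 0.0258). Psmb1 was 8.87, 8.61, 8.57, 8.74 and 8.67 in CD25+ and 8.10, 8.03 and 7.98 in CD25- cells, and rose 1.57-fold (0.65, SE 0.14, adjusted p = 0.00675). Its values within each group were close together, and the call held without each of the 14 node arrays in turn. Psmb2 rose 1.81-fold (6.67 ± 0.37, SD, n = 5, against 5.81 ± 0.04, n = 3; adjusted p = 0.0477), Psmb4 1.4-fold (9.55 ± 0.12 against 9.06 ± 0.17; adjusted p = 0.036) and Psmd8 1.7-fold (6.38 ± 0.31 against 5.61 ± 0.14; adjusted p = 0.0327).

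The members that fell in mesenteric CD25+ cells came from 5 different parts. Psmd6, a lid subunit, was 6.18, 6.07, 6.71, 6.38 and 6.33 in CD25+ and 7.05, 7.57 and 7.00 in CD25- cells. It fell by 0.87 (SE 0.17, adjusted p = 0.00411), without overlap, and the call held in all 21 alternatives. Psmg1, a chaperone that helps to assemble the alpha ring, was 6.98, 7.06, 6.48, 6.45 and 6.19 in CD25+ and 7.29, 7.88 and 7.55 in CD25- cells. It fell by 0.94 (SE 0.22, adjusted p = 0.0144). Psma1, an alpha ring subunit, fell by 0.72 (SE 0.18, adjusted p = 0.0198), and Psme4, the PA200 activator, fell by 0.73 (SE 0.17, adjusted p = 0.0121). Psmc5, an ATPase of the base, fell by 0.44 (SE 0.13, adjusted p = 0.0441), and here the groups overlapped: CD25+ replicate 3 was at 5.76 and CD25- replicate 2 at 5.70.

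The inducible genes lay higher in mesenteric CD25+ cells, by 0.59 for Psmb8, 0.76 for Psmb9, 0.56 for Psmb10 and 0.30 for Psme1, and none was called (adjusted p = 0.3, 0.0908, 0.205 and 0.638). Psmb8 was 9.07, 9.21, 9.70, 9.70 and 9.28 in CD25+ and 8.83, 8.85 and 8.73 in CD25- cells. Psmb9 was 7.91, 8.05, 8.41, 8.43 and 8.26 in CD25+ and 7.52, 7.18 and 7.64 in CD25- cells. In neither gene did the groups overlap. Psmb10 was 8.46, 8.65, 8.69, 9.18 and 8.57 against 8.50, 7.92 and 8.04, with CD25- replicate 1 inside the CD25+ range. Psme1 was 7.89, 8.0, 8.56, 8.79 and 8.60 against 8.22, 8.01 and 7.97, and overlapped. The catalytic Psmb5, Psmb6 and Psmb7 differed by 0.76, 0.46 and -0.56 and were not called. All 14 node arrays shared 1 estimate of the spread. Without peripheral CD25+ replicate 1 that estimate shrank, the Psmb9 difference, still 0.76, was called (adjusted p = 0.0167), and those of Psmb8 and Psmb10 had adjusted p of 0.0505 and 0.0548. Quantile normalization within the set also called Psmb9, at 0.85 (adjusted p = 0.0418), and then 6 members were higher and 5 lower.

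The median differences by part in mesenteric nodes were 0.65 for the constitutive beta genes (-0.56 for Psmb7 to 1.13 for Psmb3), 0.57 for the inducible genes, 0.24 for the non-ATPase subunits, 0.06 for the alpha ring and -0.22 for the ATPases, against 0.12 over the members and 0.04 over all probe sets. The 10 calls became 2 without CD25- replicate 2, 4 without CD25- replicate 1 and 5 without CD25+ replicate 4 or 5. Calls over all probe sets fell with them, from 1514 to 743, 798, 1117 and 1072. The 10 became 12, with 7 higher and 5 lower, without peripheral CD25+ replicate 1, when calls over all probe sets rose from 1514 to 1878. The actin ratio averaged 2.85 ± 0.19 (SD, n = 5) in CD25+ and 2.63 ± 0.05 (n = 3) in CD25- cells (exact permutation p = 0.0714, adjusted p = 0.175). With it as a covariate 4 members were called, 2 in each direction, and 1054 probe sets in all.

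In peripheral nodes 4 of the 5 members that fell in mesenteric CD25+ cells fell as well, and no member was called higher. Of the 58 members 4 were called lower (6.9%), against 5.89% lower and 1.8% higher over all probe sets. The lower share was near that of all probe sets, so the falls are not read as particular to the members. At an unadjusted p under 0.05 there were 9 lower and 7 higher members, or 27.6% of them, against 20.8% of all probe sets. Psmd6 was 5.98, 5.97 and 6.15 in CD25+ and 7.68, 7.12 and 7.30 in CD25- cells without overlap, and it fell by 1.33 (SE 0.18, adjusted p = 0.000718). Psmc5 was 5.13, 5.13 and 5.14 in CD25+ and 5.83, 5.68 and 6.15 in CD25- cells, and fell by 0.76 (SE 0.15, adjusted p = 0.00667). Both calls held without each of the 14 arrays in turn. Psma1 was 6.82, 6.04 and 6.53 in CD25+ and 6.95, 7.50 and 7.30 in CD25- cells and fell by 0.78 (SE 0.21, adjusted p = 0.0321), and Psmg1 was 5.97, 6.61 and 6.52 against 7.59, 7.30 and 6.91 and fell by 0.90 (SE 0.25, adjusted p = 0.0427).

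The inducible genes of peripheral nodes turned on 1 array. Psmb8 was 8.0, 9.47 and 9.90 in CD25+ and 8.06, 8.66 and 8.83 in CD25- cells. Psmb9 was 7.33, 8.20 and 8.98 in CD25+ and 7.14, 7.71 and 7.65 in CD25- cells, and Psmb10 was 7.60, 8.57 and 9.03 against 7.97, 7.97 and 7.57. In all 3 genes CD25+ replicate 1 lay in or below the CD25- range and the other CD25+ arrays above it. With all arrays the differences were 0.60, 0.67 and 0.57 and were not called (adjusted p = 0.388, 0.233 and 0.301). Without CD25+ replicate 1 they were 1.17 (adjusted p = 0.0053), 1.09 (0.00967) and 0.97 (0.013), all called. That array was itself low in these genes, so the calls made without it are no separate support. Psme1 was 7.17, 8.37 and 9.03 in CD25+ and 7.77, 8.10 and 7.90 in CD25- cells, with a difference of 0.26 that became 0.77 (adjusted p = 0.0707) without replicate 1.

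Without that array 11 members were called in peripheral nodes, 8 higher and 3 lower, while over all probe sets 4.44% were called higher and 7.33% lower. The higher ones were Psmb8, Psmb9, Psmb10, Psmb1, Psmb2, Psmb3, Psmb4 and Psmd8, and the lower ones Psma1, Psmc5 and Psmd6. The Psmg1 call was lost. Leaving out CD25- replicate 2, CD25+ replicate 2 or CD25+ replicate 3 instead left 2 calls, while calls over all probe sets fell from 955 to 546, 531 and 734. The actin ratio was 3.30, 2.76 and 3.01 in CD25+ and averaged 3.02 ± 0.27 (SD, n = 3) against 2.54 ± 0.20 (n = 3) in CD25- cells (exact permutation p = 0.1, the smallest that 3 against 3 arrays allow two-sided, adjusted p = 0.175). With it as a covariate 1 member was called, and 267 probe sets in all. Quantile normalization within the set gave 2 higher (Psmb1 and Psmb4) and 2 lower (Psmd6 and Psmc5), and 33.2% of all calls were then higher, against 23.4% without it.

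**Figure D3:**
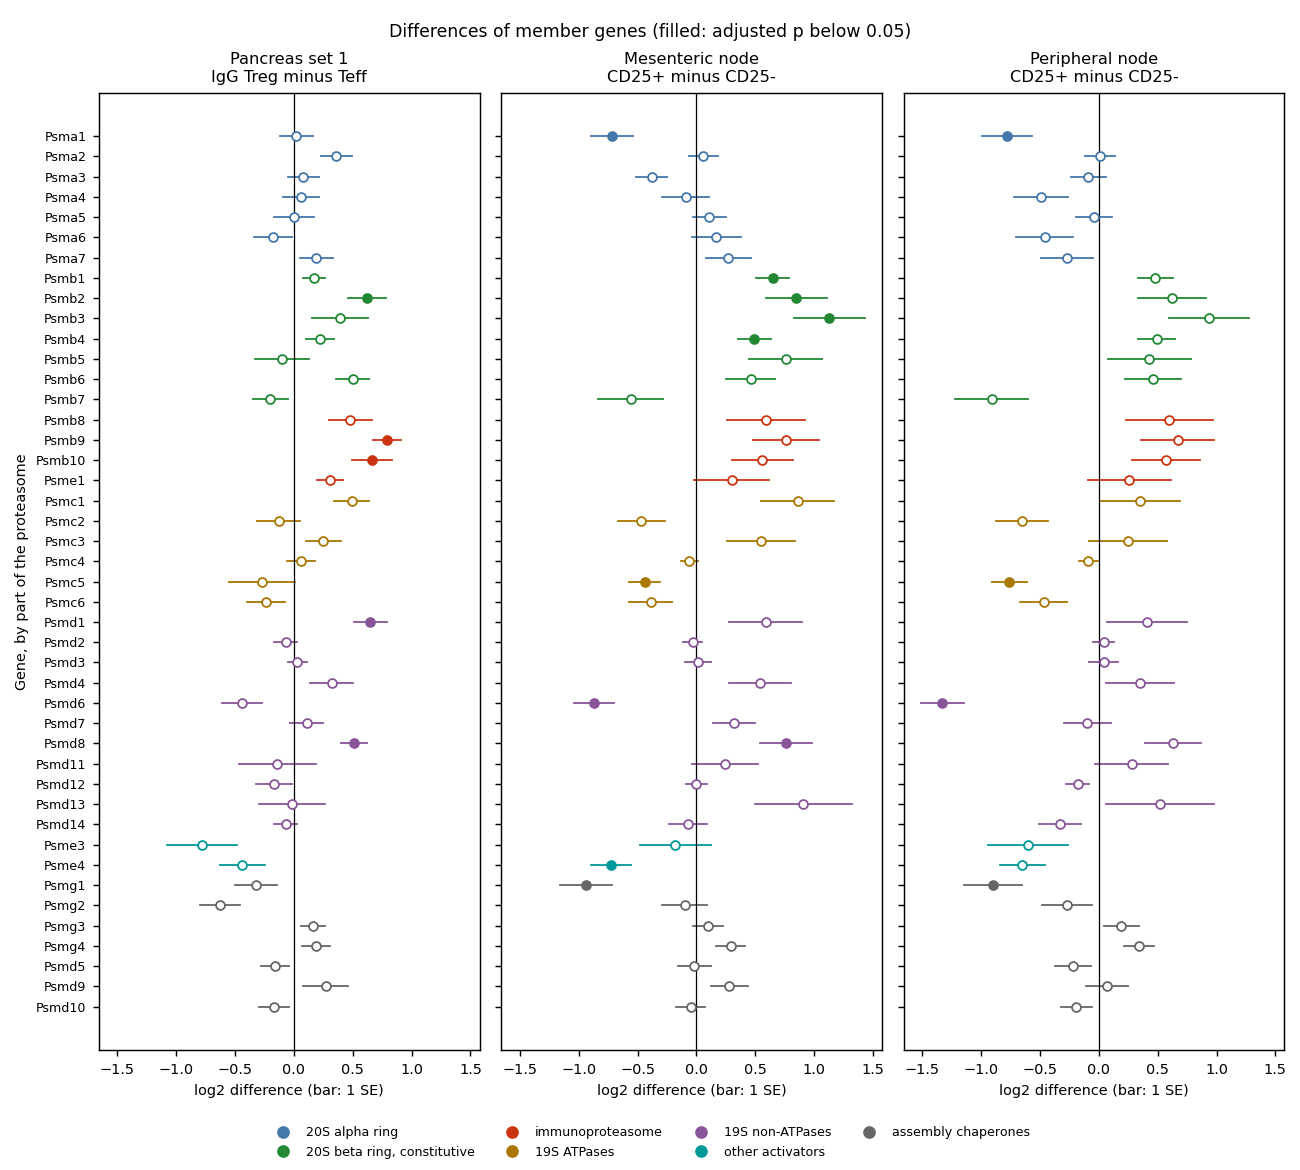
Log2 difference (horizontal axis, bar 1 SE) of the brightest probe set of each of the 44 genes in set 1 (Treg minus Teff) and in mesenteric and peripheral nodes (CD25+ minus CD25-), ordered by part and coloured by it; filled points have an adjusted p below 0.05. Psmb9 is filled in set 1 at 0.79, the filled beta ring genes of mesenteric nodes reach 1.13 for Psmb3, and Psmd6 is filled and lower in both node sites.

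The differences of the members were then set side by side in comparisons that share no array, as a description over members, which are not independent. The node comparisons came from 1 fit with 1 estimate of the spread, so their calls are not independent either. Between set 1 and mesenteric nodes Pearson's r was 0.695 over the 58 members and 0.584 over all probe sets, and 43 of 58 had the same sign. Psmb2 and Psmd8 were called in both, or 33.3% of the set 1 calls and 20% of the mesenteric ones. Between set 1 and peripheral nodes r was 0.724 over members and 0.628 over all probe sets, with 41 of the same sign and none called in both. Between the node sites r was 0.911 over members and 0.858 over all, 46 had the same sign, and 4 were called in both, 40% of the mesenteric and 100% of the peripheral calls. Without peripheral CD25+ replicate 1, r over members was 0.741 between set 1 and peripheral nodes and 0.944 between the node sites (0.63 and 0.886 over all probe sets). Psmb2, Psmb9, Psmb10 and Psmd8 were then called in both set 1 and peripheral nodes, or 66.7% of the set 1 calls and 36.4% of the peripheral ones, 9 members were called at both node sites, or 75% and 81.8%, and Psmb9 joined Psmb2 and Psmd8 in set 1 and mesenteric nodes. In each pair r over the members stood a little above r over all probe sets, and nothing particular to the members is read from it. The share of all probe sets called in both was not counted, so nothing particular to the members is read from the shared calls either. Every called member had the same sign in each array-number run that held both cell types, 6 of 6 in set 1, 10 of 10 in mesenteric and 4 of 4 in peripheral nodes. The calls came from these same arrays, so this agreement was largely fixed in advance and is no separate support.

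**Figure D4:**
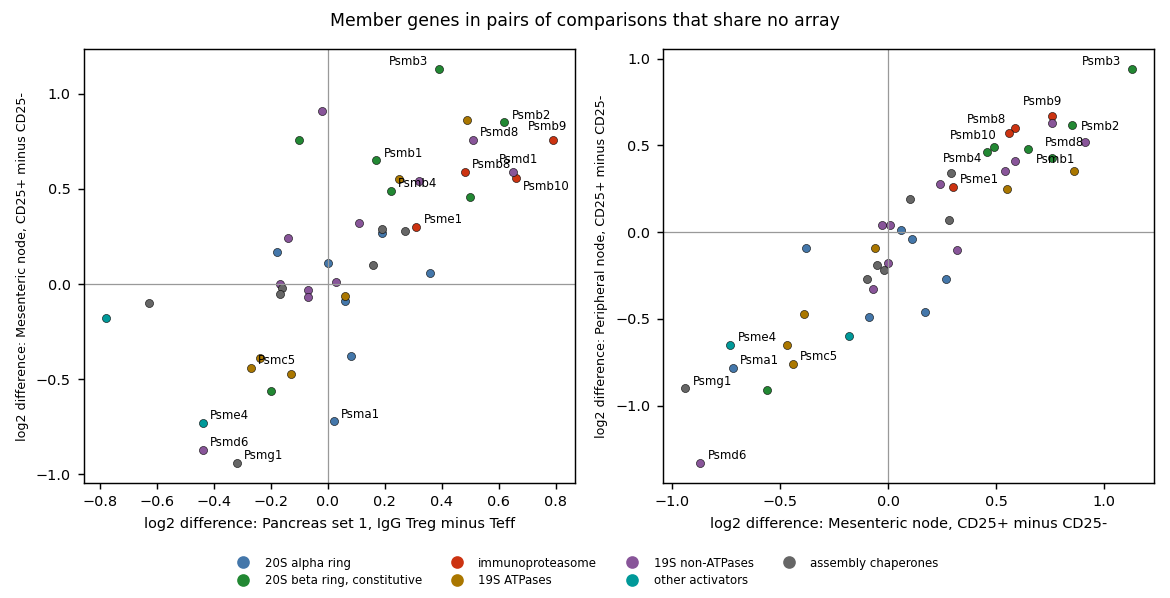
Log2 differences of the 44 genes, coloured by part, in set 1 (horizontal) against mesenteric nodes (vertical) at left, and in mesenteric (horizontal) against peripheral nodes (vertical) at right; inducible genes and genes called on either axis are named. Psmb9 lies at 0.79 and 0.76 at left, Psma1 lies at 0.02 in set 1 and -0.72 in mesenteric nodes, and Psmd6 is lowest at right with -0.87 and -1.33.

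Psmd6 and Psmc5, which fell at both node sites, had widely spread values among pancreatic Treg. Psmd6 was 6.71, 6.56 and 7.37 in set 1 Treg and 7.16 to 7.54 in Teff, and it was 6.24, 7.47 and 7.23 in anti-ICOS Treg and 6.08 and 7.26 in the IgG Treg of set 2. Psmc5 was 5.57, 6.93 and 6.96 in set 1 Treg, 5.58, 6.91 and 6.77 in anti-ICOS Treg and 5.69 and 6.83 in the IgG Treg of set 2. In each of these 3 groups replicate 1 was low for Psmc5 and the other arrays were between 6.77 and 6.96, beside 6.45 as the lowest Teff value of set 1. The actin ratio of these low arrays was 3.69, 4.06 and 4.16, against 2.45 to 3.02 in the other Treg arrays except set 1 replicate 2, at 4.53 with Psmc5 at 6.93. The part of RNA quality in these values was not tested.

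Blockade of ICOS was compared in set 2, where no member was called, and where Treg of the 2 treatments were sorted by different gates. Between anti-ICOS Treg and Teff limma called 0 of 58 members and 0% of all probe sets; at an unadjusted p under 0.05 it found 1 member and 209 probe sets in all, and with trended, robust variances 0 members. Psmb9 was 9.93, 9.42 and 8.67 in Treg and 8.80, 8.71 and 8.63 in Teff, with a difference of 0.63 (SE 0.33, adjusted p = 1). Treg replicates 1 and 2 were above all Teff arrays, and replicate 3, the library whose markers went against its label, was inside their range. Psmb8 was 10.16, 10.35 and 9.92 against 10.14, 9.71 and 9.85 (difference 0.24), Psmb10 was 9.0, 8.53 and 8.27 against 8.69, 8.28 and 8.13 (0.24), and Psme1 was 8.74, 8.94 and 8.63 against 9.02, 8.71 and 8.71 (-0.04). Without replicate 3 the Psmb9 difference was 0.96 (SE 0.27, limma adjusted p = 0.454), and no member was called, beside 0.0966% of all probe sets. At an unadjusted p under 0.05 there were 7 members. The share over all probe sets was not counted at that threshold, so nothing particular to the members is read from this count.

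Anti-ICOS Treg and IgG Treg of set 2 differed in 0 of 58 members and 0% of all probe sets by limma, with 0 members and 425 probe sets at an unadjusted p under 0.05 and 0 members with trended, robust variances. Of the members 40 lay higher in anti-ICOS Treg, with a median difference of 0.15 against -0.05 over all probe sets. The IgG group was 2 arrays that differed from each other: Psmb8 was 9.62 and 10.56, Psmb9 8.52 and 9.35, and Psme1 8.11 and 9.02. The differences were 0.06 for Psmb8, 0.41 for Psmb9, -0.12 for Psmb10 and 0.21 for Psme1. Without anti-ICOS replicate 3 the differences were 0.17, 0.74, 0.04 and 0.28, and no member was called, beside 0% of all probe sets. At an unadjusted p under 0.05 there were 4 members, again without a share over all probe sets at that threshold, and nothing particular to the members is read from it. Without IgG replicate 1 the remaining IgG array was assumed to vary like the other groups, and the differences were -0.41, -0.01, -0.16 and -0.24. For Teff the 2 treatments lay in different sets, so treatment and set cannot be told apart. There limma called 0 of 58 members and 0% of all probe sets after joint quantile normalization, with 0 members and 512 probe sets at an unadjusted p under 0.05 and 0 members with trended, robust variances. The differences were 0.00 for Psmb8, 0.26 for Psmb9, 0.08 for Psmb10 and 0.15 for Psme1. With median centring in place of quantile normalization, 3 members, all lower in anti-ICOS Teff, and 1870 probe sets were called, of which 1.5% were higher. This comparison turns on the scaling.

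No member was called between node sites. Between mesenteric and peripheral nodes limma called 0 of 58 members in CD25+ cells, where 0.0725% of all probe sets were called, and 0 of 58 in CD25- cells, where 0.451% were called. At an unadjusted p under 0.05 it found 1 and 0 members, of 532 and 522 probe sets, and with trended, robust variances 0 members in both. The differences in CD25+ cells were 0.27 for Psmb8, 0.04 for Psmb9, 0.31 for Psmb10 and 0.18 for Psme1, and without peripheral CD25+ replicate 1 they were -0.29, -0.38, -0.09 and -0.33. In CD25- cells they were 0.29, -0.05, 0.32 and 0.14. Of 19 interferon signalling genes 3 were called higher in mesenteric cells of both sorts, the interferon-induced Ifit1, Ifit3 and Isg15, by 3.15, 3.16 and 1.92 in CD25- cells and by 2.53, 2.45 and 1.83 in CD25+ cells. In CD25- cells 1 was called lower, the transcription factor gene Irf8, by 1.51 (adjusted p = 0.00366), and in CD25+ cells none was.

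More members were higher than lower in pancreatic cells against node cells, in fits that joined set 1 and the node set after quantile normalization. Tissue coincides with set, treatment and array run here, so the part of tissue cannot be told apart. Markers of other cell types moved as well. Of 4 exocrine pancreas markers 3 were called higher in pancreatic cells in both sorts, with summed levels of 315 to 675 in set 1 and 154 to 228 in nodes. Both erythroid markers rose in Treg, of 5 B cell markers 4 fell and 1 rose in Treg and 3 fell and 1 rose in Teff, and of 9 T cell markers 1 rose in Treg and 5 in Teff. The part of these cells in the member differences was not tested. Between pancreatic Teff and node CD25- cells 19 members were called higher and 3 lower (32.8% and 5.17%), against 13.3% higher and 13.7% lower over all probe sets. Psmb8 averaged 9.69 ± 0.28 (SD, n = 5) in pancreatic Teff and 8.65 ± 0.26 (n = 6) in node cells and rose by 1.03 (SE 0.24, adjusted p = 0.00343). Psmb9 averaged 8.32 ± 0.24 against 7.52 ± 0.21 and rose by 0.80 (SE 0.18, adjusted p = 0.0032). Both calls held in all 26 alternatives. Psme1 and Psmb10 differed by 0.54 and 0.14 and were not called (adjusted p = 0.0641 and 0.642). The Psme2b and Psme2 probe set rose by 0.80 (adjusted p = 0.000675).

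The constitutive members called between Teff and node CD25- cells came from every part of the particle but were uneven within it. Of the beta ring genes Psmb5 rose by 1.17 (SE 0.24, adjusted p = 0.00182), beside 1.03 for its inducible counterpart Psmb8, Psmb4 rose by 0.71 and Psmb3 by 0.70, and both brighter probe sets of Psmb1 rose, by 0.33 and 1.05. The dimmer probe set of Psmb5 stayed between 4.89 and 5.39 on all 30 arrays and was not called. Of the alpha ring Psma4, Psma5 and Psma6 rose by 0.63, 0.35 and 0.60, while Psma3 fell by 0.32 (adjusted p = 0.0413). In the regulatory particle Psmc1 rose by 0.87, Psmc5 by 0.55, Psmd7 by 0.36, Psmd8 by 0.48, Psmd13 by 1.18 (SE 0.33, adjusted p = 0.0111) and 2 probe sets of Psmd11 by 0.82 and 0.73. Of activators and chaperones Psme4 fell by 0.61 and Psmg1 by 0.55, and Psmg2 and Psmd10 rose by 0.52 and 0.53. The count of 22 became 14 without Teff replicate 1, when calls over all probe sets fell from 3354 to 2526, and was otherwise 15 to 26 over single arrays left out. Median centring gave 13 higher and 6 lower members, and 32.8% of all calls were then higher, against 49.4% with quantile normalization.

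Between pancreatic Treg and node CD25+ cells 11 members were called higher and 1 lower (19% and 1.72%), against 12.1% higher and 12% lower over all probe sets. Psmb9 was the 1 inducible gene among them: it averaged 9.11 ± 0.03 (SD, n = 3) against 8.33 ± 0.42 (n = 8) and rose by 0.78 (SE 0.20, adjusted p = 0.00896), a call that held in all 26 alternatives. Psmb8 differed by 0.71, Psmb10 by 0.14 and Psme1 by 0.44, without a call (adjusted p = 0.059, 0.697 and 0.19). Psma4 rose by 0.95 (SE 0.18, adjusted p = 0.000841) and Psma1 by 0.63, and of the ATPases Psmc1 rose by 0.79, 1 probe set of Psmc3 by 0.60, Psmc4 by 0.25 and Psmc5 by 0.90 and 0.36 on its 2 probe sets. The chaperone Psmd10 rose by 0.51 and 1 probe set of Psmb1 by 0.56, while the brightest probe set of Psmb1 differed by -0.21 and was not called. The probe sets of Psmd11 disagreed, with 1 higher by 0.74 and 1 lower by 0.54, both called. The count of 12 became 6 without Treg replicate 2 or 3, when calls over all probe sets fell from 2997 to 1956 and 2236, and at most 18 (without peripheral CD25+ replicate 3). Without peripheral CD25+ replicate 1 it was 10, 8 higher and 2 lower, with Psmb9 at 0.60 (adjusted p = 0.0108) and Psmb10 at -0.04.

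**Figure D5:**
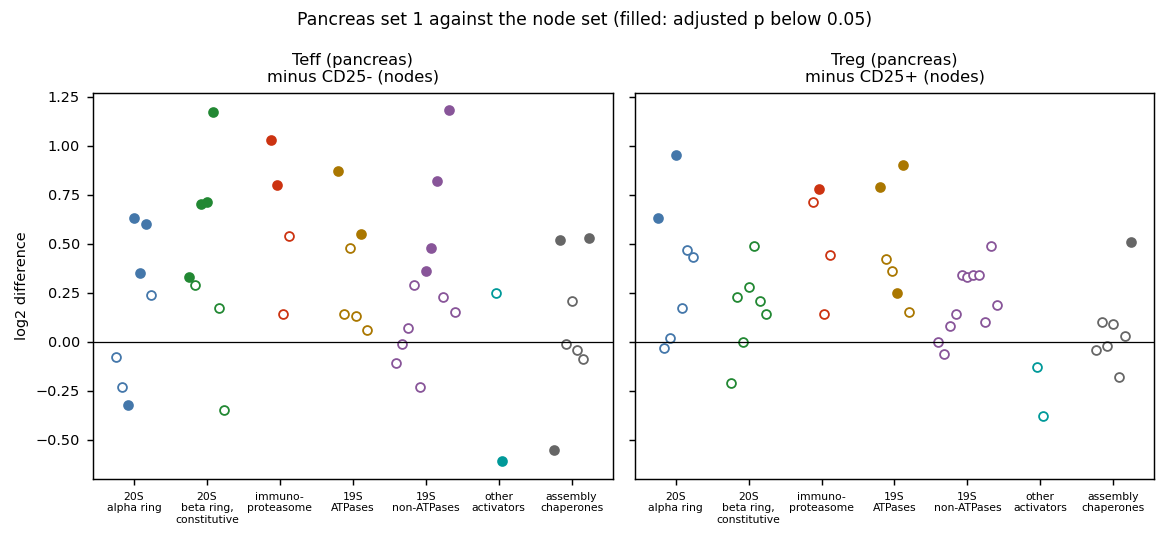
Log2 difference (vertical axis) of the brightest probe set of each of the 44 genes, by part of the proteasome (horizontal), for pancreatic Teff minus node CD25- cells at left and pancreatic Treg minus node CD25+ cells at right; filled points have an adjusted p below 0.05. In the immunoproteasome column 2 of 4 genes are filled at left (Psmb8 at 1.03 and Psmb9 at 0.80) and 1 at right (Psmb9 at 0.78).

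The difference between the pancreatic and the node contrast was tested directly, with the mean of both node sites. No member was called by limma (smallest adjusted p 0.0891), against 2.08% of all probe sets; 5 members and 1763 probe sets had an unadjusted p under 0.05, and with trended, robust variances 0 members were called. The inducible genes differed between tissues by -0.33 (Psmb8), -0.02 (Psmb9), -0.00 (Psmb10) and -0.10 (Psme1), with adjusted p from 0.733 to 0.996. The members with the most different contrasts were Psmb3, at -0.71, and Psma1, at 0.71. One member was called without Treg replicate 1 or without mesenteric CD25+ replicate 3, and 2 without peripheral CD25+ replicate 1, when 445 probe sets in all were called and Psmb8 and Psmb9 differed by -0.59 and -0.20, still without a call. The Psmb9 rise in set 1 and its uncalled node differences are therefore not shown to differ.

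Genes of linked pathways were counted from fixed lists. Of 10 measured antigen processing genes none was called in set 1 by limma, and 2 had an unadjusted p under 0.05. Tap1, whose start lies 226 bases from that of Psmb9, differed by 0.33 (adjusted p = 0.415), Tapbp by 0.44 (0.159) and B2m by 0.21 (0.3). In mesenteric nodes 1 rose, the class I gene H2-K1, by 0.51 (adjusted p = 0.0288). Of 19 interferon signalling genes 5 rose and 1 fell in set 1 Treg, or 26.3% and 5.26%, beside the 3.93% and 2.76% of all probe sets. The risers were the GTPase genes Gbp3 by 2.18 (adjusted p = 3.33e-05), Igtp by 0.90 and Iigp1 by 0.63, the receptor chain Ifngr1 by 0.82 and the feedback inhibitor Socs1 by 0.55, and the kinase Jak2 fell by 0.55. Irf1, a transcription factor induced by interferon gamma, differed by 0.07 and was not called. In mesenteric nodes 3 rose (Ifngr1, Irf8, Socs1) and 2 fell (Jak2, Irgm1), or 15.8% and 10.5%, beside 4.66% and 7.53% of all probe sets. In peripheral nodes Ifngr1 rose and Jak2 fell, 5.26% each, beside 1.8% and 5.89%. In pancreatic Treg against node CD25+ cells 6 of the 19 rose and 5 fell, 31.6% and 26.3%, beside 12.1% and 12% of all probe sets. In pancreatic Teff against node CD25- cells 4 rose and 7 fell, 21.1% and 36.8%, beside 13.3% and 13.7%. Ifng itself rose by 3.10 in Treg (limma adjusted p = 4.65e-07) and by 2.29 in Teff.

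Of 15 measured genes of ubiquitin and proteasome control 0 rose and 5 fell in mesenteric CD25+ cells, and 0 rose and 4 fell in peripheral ones; 33.3% and 26.7% of the list fell, beside the 7.53% and 5.89% of all probe sets. Usp14, a deubiquitinase of the regulatory particle, fell by 1.42 and 1.37, Ubqln1, a shuttle for ubiquitin-tagged proteins, by 2.17 and 2.05, and Nfe2l2, a stress-response transcription factor, by 1.50 and 1.27. In set 1 Treg 0 rose and 2 fell, 13.3% of the list beside 2.76% of all probe sets. Nfe2l2 fell by 0.89 and the conjugating enzyme gene Ube2d3 by 1.09. Of the same 15 genes 4 rose and 2 fell in pancreatic Treg against node CD25+ cells, 26.7% and 13.3% of the list. Over all probe sets 12.1% rose and 12% fell. In pancreatic Teff against node CD25- cells 2 rose and 7 fell, 13.3% and 46.7%, beside 13.3% and 13.7% of all probe sets. Pomp, the chaperone of core assembly, rose in pancreatic against node cells by 0.61 in Treg and 0.48 in Teff. Of 24 cell cycle genes 12 rose and 0 fell in set 1 Treg, and 12 rose and 0 fell in pancreatic Treg against node CD25+ cells, 50% of the list beside 3.93% and 12.1% of all probe sets. Between pancreatic Teff and node CD25- cells 1 rose and 4 fell, 4.17% and 16.7% of the list beside 13.3% and 13.7% of all probe sets. Of 5 B cell markers 2 rose and 0 fell in set 1 Treg and in mesenteric CD25+ cells, 40% of the list each, beside 3.93% and 4.66% of all probe sets higher. They were Cd79b and Blk, by 0.69 and 0.58 in set 1 and by 1.07 and 1.59 in mesenteric nodes. The list had medians of 0.15 and 0.06, with 4 and 3 of the 5 positive. The summed level of 5 of 6 B cell markers was 193 to 229 in set 1 Treg and 180 to 194 in Teff, and the sums of 8 myeloid markers, 1230 to 1570 and 1380 to 1510, overlapped. The erythroid sums of set 1 were 2310 to 2890 in Treg and 471 to 2230 in Teff. The part of other cells in the member differences was not tested.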

How the data were processed

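RNA from sorted cells was taken up in Trizol, amplified in 2 rounds in set 1 and in 1 node sample per the labels' protocols, labelled with biotin and hybridised to MG-U74Av2 arrays. The values deposited by the authors are intensities on a linear scale. RMA is named, without a version, for the lymph node set and pancreas set 2 per the submitters' processing notes, while for set 1 the processing was not given in the sources used here. Gene names came from the platform annotation; all 46 member genes matched RefSeq (GRCm38.p6) by Entrez identifier. The log2 was taken, the 66 controls were not tested, and no filter on dim probe sets was set. Array medians spanned 0.0878, 0.0964 and 0.0978 on the log2 scale within the sets, under a limit of 0.1, so values within a set were used as deposited, and sets fitted together were quantile-normalized together first. Tests used R 4.3.3 with limma 3.58.1 (functions lmFit and eBayes, defaults, two-sided, group means only), with Benjamini-Hochberg adjustment over 12422 probe sets; the code was tested on simulated data. Groups followed the titles. Against them stood the tissue entry of the peripheral arrays, which reads mesenteric, and the source name of mesenteric CD25+ replicate 2, which reads CD25-. The array found in both sets (r = 0.997 between its records, at most 0.986 with other pancreatic arrays) was averaged and counted once in the joint pancreatic fit. Control rows of the node arrays were stored in another order (r = 0.254 with set 1, 0.952 once reordered) and were reordered before the actin ratio was taken.

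Members and lists were chosen with earlier results of these data known. The rule for named genes took the inducible and constitutive catalytic genes, any other member past the threshold, and list members past the threshold, of which a selection is printed; the brightest probe set over the arrays of a fit stood for a gene in counts by part. Replicate numbers were taken as pairs for anti-ICOS Treg with Teff (correlations of deviations from the group means 0.59, 0.28 and 0.24) and for mesenteric with peripheral CD25+ cells (0.20, 0.20 and 0.28). The partner of the same number correlated best for 2 and 3 of the replicates. In the CD25+ pairs both arrays also lay in the same array-number run, and its part was not tested. Alternatives were quantile normalization within a set, median centring, an offset of 16 before the log2, probe sets above the median level only, trended and robust variances, the array-number run as a block, the replicate number as a block, the actin ratio as a covariate, the shared array taken from set 1 alone, and each array left out.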

Additional observations from a re-analysis of the deposited data

Results flagged for a closer look

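In groups of 5 arrays, the member genes were searched for a single array far from the others, in 88 tests over 2 groups, with a gap over range above 0.71; chance alone gives about 1 such array in 20 tests. Psmd7, a lid subunit, was at 7.52 in IgG Teff replicate 1 of set 1, above the other 4 arrays at 7.22 to 7.25. Psma5, an alpha ring subunit, was at 8.54 in mesenteric CD25+ replicate 4, above the others at 8.06 to 8.10. Psmc5, an ATPase of the base, was at 5.76 in mesenteric CD25+ replicate 3, above the others at 5.15 to 5.32.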

How the results depend on the processing

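The counts of called members in the 2 comparisons within set 2 and the 2 between node sites were 0 under every alternative tried. With the actin ratio as a covariate the counts were 0 in set 1, 4 in mesenteric and 1 in peripheral nodes, beside 86, 1054 and 267 probe sets in all. With the array-number run as a block the peripheral count was 8, while calls over all probe sets rose from 955 to 1118. The samples of a node site share a replicate number only. With the replicate block the counts were 1 in mesenteric and 8 in peripheral nodes. Calls over all probe sets then went from 1514 to 832 in mesenteric and from 955 to 1213 in peripheral nodes. The replicate block ended or made no call among the paired comparisons. Median centring gave 3 calls between anti-ICOS and IgG Teff. Quantile normalization changed the split by direction in some comparisons: it gave 4 higher and 1 lower member in set 1 and 2 of each in peripheral nodes. In mesenteric nodes it kept the 10 calls and added Psmb9, with 6 higher and 5 lower. Leaving out each array gave 1 to 8 calls in set 1, 2 to 12 in mesenteric nodes, 2 to 11 in peripheral nodes, 0 to 2 for the difference between tissues, 6 to 18 for pancreatic Treg and 14 to 26 for pancreatic Teff against node cells. Of 54 called single differences none turned its sign in 1258 refits, and 216 refits lost a call. The refits used the arrays that gave the calls, so a kept sign is no separate support. The sign turned for inducible genes that were not called. Anti-ICOS minus IgG Treg was, for Psmb8, -0.15 with quantile normalization, -0.64 with the run block, -0.06 with actin and -0.41 to 0.53 over arrays left out; for Psmb9, -0.68 with the run block and -0.01 to 0.82; for Psme1, -0.39 with the run block and -0.24 to 0.66; for Psmb10, 0.02 with the replicate block and -0.32 to 0.04. Anti-ICOS Treg minus Teff for Psme1 was 0.03 with the run block, 0.15 with actin and -0.13 to 0.06 over arrays left out. Anti-ICOS minus IgG Teff was -0.15 to 0.25 for Psmb10 and -0.03 to 0.26 for Psme1 over arrays left out. Mesenteric minus peripheral CD25+ cells was, for Psmb9, -0.01 with quantile normalization, -0.10 with the run block, -0.04 with actin, -0.05 with the replicate block and -0.38 to 0.44 over arrays left out; for Psme1, -0.04 with the replicate block and -0.33 to 0.60; for Psmb8 -0.29 to 0.66 and for Psmb10 -0.09 to 0.62 over arrays left out. In CD25- cells Psmb9 was -0.23 to 0.08. Peripheral CD25+ minus CD25- for Psme1 was -0.15 to 0.77. The difference between tissues with median centring was 0.09 for Psmb9 and 0.04 for Psme1, and over arrays left out -0.20 to 0.15 and -0.33 to 0.07. Psmb10 was -0.09 in pancreatic Teff against node cells with median centring and -0.04 to 0.26 in Treg against node cells over arrays left out. The cause of these changes was not tested. Groups of 2 to 5 arrays limit what could be called.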
